A study of Mus musculus with 7 samples.

Results

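A set of 40 genes of the bone morphogenetic protein (BMP) and transforming growth factor beta (TGF-beta) pathways was examined in the subpallium of E12.5 mouse embryos. They were taken from a list of symbols by role, chosen with earlier results of these data known. The list held 12 ligands, 10 receptors, 6 extracellular modulators, 8 Smads and 4 Id genes. All 40 were among the 17178 genes that the arrays' probes name, and 36 of them entered the test, out of 13341 genes tested in all. Bmp2, Tgfbr3 and Smad9 were each well above background on 2 of the 7 arrays, 1 control and 1 cKO-labelled, and fell below the filter of 3 arrays. The brightest probe of Bmper was marked as an outlier by the scanner software on 3 arrays, which left too few values for the test.

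Each array measured 1 female CD-1 embryo, whose ganglionic eminences and septum had been dissected out together. The controls number 4 and the arrays labelled Otx2 cKO number 3. In the latter RxCre is meant to delete a floxed allele of Otx2, a homeodomain transcription factor of the anterior brain. Per the series description this Cre acts in most of the forebrain but spares a caudal dorsomedial region holding the cortical hem and choroid plexus, and the labels do not give the alleles that the controls carry. Control 2, control 3, cKO 1 and cKO 3 came from litter 2, and each other embryo was the only one of its litter. Slide 1 held control 1, control 2 and cKO 1, and slide 2 held the rest.

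Values are log2 signals after division by the 75th percentile of the array, differences are cKO-labelled minus control, and errors are the moderated standard errors of limma. Because probes differ in response, values of different genes are not set against each other. The Otx2 probe went against the label, with 0.19, 0.55, 0.48 and 0.56 in controls 1 to 4 and 1.78, 2.34 and 1.77 in cKO 1 to 3 (difference 1.52 ± 0.17, SE, n = 4 and 3; limma, adjusted p = 0.0356). Over 22 alternative settings this difference stayed between 1.26 and 1.62 and passed the threshold in 8; the call was lost with slide as a block and on leaving out any 1 array. The sources used here do not give the place of that probe relative to the deleted part of the gene, so groups keep their labels here and each direction depends on them. Dlx1, Dlx2, Gad1, Gad2 and Nkx2-1, which mark the ventral telencephalon, were well above background on 6 or 7 arrays each. So were genes listed for the pallium: Emx1, Emx2, Neurod2, Neurod6 and Tbr1 on all 7 arrays and Eomes on 6, but Neurog2 on 2. Of the genes listed for choroid plexus, Ttr was well above background on 0 of 7 arrays and Kl on 3, whereas Folr1, Clic6, Prlr, Aqp1 and Krt18 were on all 7. Of those for the cortical hem, Lmx1a and Wnt2b were well above background on 0 arrays, Wnt5a on 1, Wnt8b on 3 and Wnt3a on 4, and Rspo1, Rspo2 and Rspo3 on all 7. Each array is a mixture of cell types, in which fewer cells of a type and less RNA per cell cannot be told apart.

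BMP and TGF-beta ligands are secreted dimers that bring type I and type II receptor kinases together at the cell surface. The receptors phosphorylate Smad1, Smad5 and Smad9 (BMP) or Smad2 and Smad3 (TGF-beta and activin), which enter the nucleus with Smad4, while Smad6 and Smad7 restrain the signal. In the forebrain BMPs come chiefly from the dorsal midline, the cortical hem and the overlying meninges, and the Id genes, whose products block basic helix-loop-helix factors, are classic BMP target genes.

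The promoters of Id2, Id3 and Id4 are shown because these are BMP target genes whose transcripts were measured here, and because Id2 and Id4 are among the few members with groups that did not overlap. Sequences run from 250 bases before to 50 bases after the annotated start, 5′ to 3′ on the gene's own strand, from RefSeq on build GRCm38.p6. Capitals mark the motifs searched on both strands: CAGAC or GTCTG (the Smad binding element), GGCGCC (a GC-rich Smad site), and TAATCC or GGATTA (the core bound by Otx-type homeodomains). Id2 lies on the minus strand at chr12:25096043-25096342, Id3 on the plus strand at chr4:136143572-136143871 and Id4 on the plus strand at chr13:48260866-48261165.
Id2: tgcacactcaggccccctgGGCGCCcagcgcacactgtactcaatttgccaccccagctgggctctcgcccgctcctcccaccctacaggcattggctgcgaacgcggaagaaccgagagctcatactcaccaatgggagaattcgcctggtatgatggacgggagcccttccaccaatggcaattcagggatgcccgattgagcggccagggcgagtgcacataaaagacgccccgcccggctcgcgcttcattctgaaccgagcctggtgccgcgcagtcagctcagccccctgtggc
Id3: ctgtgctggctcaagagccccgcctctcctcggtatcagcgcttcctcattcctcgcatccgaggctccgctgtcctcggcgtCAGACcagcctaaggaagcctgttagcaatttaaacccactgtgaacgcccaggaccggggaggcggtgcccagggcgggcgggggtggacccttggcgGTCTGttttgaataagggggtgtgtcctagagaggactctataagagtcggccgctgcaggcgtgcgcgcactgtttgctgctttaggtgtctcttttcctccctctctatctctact
Id4: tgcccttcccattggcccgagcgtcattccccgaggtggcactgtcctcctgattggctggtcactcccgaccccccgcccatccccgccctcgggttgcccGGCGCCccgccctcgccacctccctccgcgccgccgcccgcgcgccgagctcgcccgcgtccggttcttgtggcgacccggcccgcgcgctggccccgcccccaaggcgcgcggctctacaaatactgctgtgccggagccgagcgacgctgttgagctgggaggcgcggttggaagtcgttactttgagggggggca
Id2 and Id4 each held 1 GGCGCC and no CAGAC or GTCTG, whereas Id3 held 2 matches of CAGAC or GTCTG and no GGCGCC. The Otx-type core, TAATCC or GGATTA, was in 0 of these 3 windows.

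Of the 40 members 28 had an entry in the promoter table, with 33 promoters among them. GGCGCC was found in 10 of the 33 (30.3%), against 11.9% of all 32851 promoters of the same length. This motif holds only G and C, and the promoters were not matched for GC content. The windows shown above were 63.3% (Id2), 60% (Id3) and 73.3% (Id4) G or C. CAGAC or GTCTG was in 14 of 33 (42.4%) against 49.6% of all, and TAATCC or GGATTA in 2 of 33 (6.06%) against 7.06%. These matches describe the letters in the windows and are not binding sites.

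None of the 36 members tested passed the threshold of adjusted p 0.05 (limma, Benjamini-Hochberg over all genes), a threshold that 28 of 13341 genes passed (0.210%, with 0.0825% higher and 0.127% lower). Before adjustment 2 members had a p under 0.05, both lower in the cKO-labelled arrays (Tgfb3 and Id2), against 11.0% of all genes (3.94% higher and 7.10% lower). The groups did not overlap for 3 members, Id4 higher and Tgfb3 and Id2 lower, against 12.8% of all genes (5.14% higher and 7.65% lower). Neither share was above its background. Id4 had values on 2 controls and 3 cKO-labelled arrays and Id2 on 3 and 2, and smaller groups separate more easily. A difference of at least 2-fold was seen in 1 member, Bmp6, and in 1.69% of all genes; that of Bmp6 was under 2-fold in several other settings. The members' differences ran from -1.35 to 0.47 with a median of 0.04, beside a median of 0.01 over all genes, and 20 were positive and 16 negative, where 53.3% of all genes were positive. The median size of a member's difference was 0.16 and its median standard error 0.18, against 0.13 and 0.13 over all genes. Arrays of 4 and 3 embryos limit the precision, and p-values measure the spread between these embryos.

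**Figure D1:**
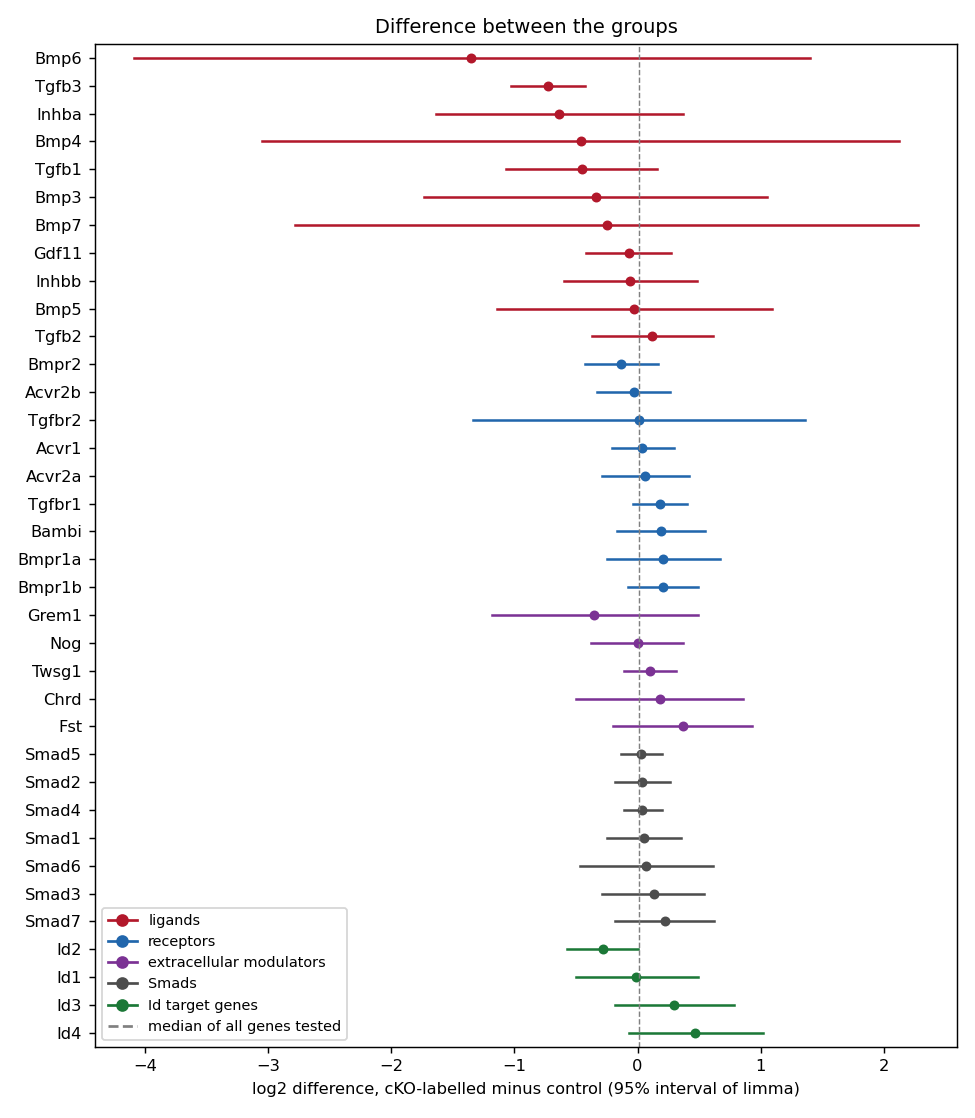
Log2 difference, cKO-labelled minus control, for each of the 36 members tested, coloured by role, with the 95% interval of limma; the dashed line is the median of all genes tested (0.01). The interval of Tgfb3 runs from -1.03 to -0.43, and those of Bmp4, Bmp6 and Bmp7 are the widest.

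Tgfb3, which encodes one of the TGF-beta ligands proper, had the smallest p of the members. Its log2 signal was 0.70, 0.58, 0.56 and 0.48 in controls 1 to 4 and -0.08, 0.05 and -0.42 in cKO 1 to 3. All 3 cKO-labelled arrays lay below all 4 controls, and the controls spanned a narrower range than the cKO-labelled arrays. The difference was -0.73 ± 0.13 (95% interval -1.03 to -0.43), 1.66-fold lower, and did not pass the threshold (limma, unadjusted p = 0.000762, adjusted p = 0.134). It was -0.72 within slide 1, -0.70 within slide 2, -0.82 within litter 2 and between -0.83 and -0.59 over 22 alternative settings, with a smallest adjusted p of 0.0952.

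Among the ligands as a group, 11 of 12 were tested, 0 passed the threshold and 10 had a negative difference, with a median of -0.34. Over all genes 6235 of 13341 differences were negative. Without cKO 3 only 7 of the 11 were negative, and without control 1, control 4 or cKO 1 there were 8. The ligands were also the least precise role: 6 of 11 had a standard error of at least 0.4, against 8.8% of all genes tested.

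Bmp4, a dorsal midline BMP, was measured at -3.21, -6.19, -3.64 and -3.12 in controls 1 to 4 and at -6.15, -2.35 and -5.01 in cKO 1 to 3. The low arrays were control 2, cKO 1 and cKO 3, and the highest was cKO 2, so the groups overlapped over nearly their whole range. Its difference was -0.46 ± 1.09 (adjusted p = 0.909, limma), which turned to 0.36 without cKO 1 and reached -1.54 without cKO 2. Bmp7, a BMP of the meninges, midline and choroid plexus, was measured at -0.41, -2.52, -1.19 and -0.15 in the controls and at -1.54, 1.0 and -3.44 in the cKO-labelled arrays. The highest value and the lowest were both cKO-labelled arrays, and the difference was -0.25 ± 1.07 (adjusted p = 0.952, limma). It reached -1.42 without cKO 2 and turned to 0.80 without cKO 3 and 0.05 without control 4. Its second probe gave -0.34.

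Bmp6 differed by -1.35 ± 1.16, and the groups overlapped (adjusted p = 0.716, limma). Its size moved with the setting, to -0.37 with normexp, -0.72 fitted on the authors' deposited table and -0.67 as the mean over probes. It was -0.75 without cKO 1 or without cKO 3, -0.89 without control 1, -2.08 without control 2 and -2.54 without cKO 2. It was measured at -3.55, -7.12, -4.63 and -4.33 in the controls and at -7.45, -3.86 and -7.45 in the cKO-labelled arrays, where -7.45 is the floor set for dim signals. It was not well above background on control 2, cKO 1 and cKO 3, the same arrays that were low for Bmp4. The second Bmp6 probe was at the floor on every array, so the mean over probes had to give a smaller difference. Bmp5, a close relative of Bmp6 and Bmp7, was well above background on 3 arrays (control 1, control 4 and cKO 2) and differed by -0.03 ± 0.47.

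Bmp3, a divergent BMP that can oppose the others, differed by -0.34 ± 0.59. Control 1 at -7.38, near the floor and not well above background, stood apart from the other controls, which lay between -5.26 and -5.00. The Bmp3 difference was -0.9 without control 1 and ran from -0.96 to -0.01 over the alternatives that gave a value. Tgfb1 differed by -0.45 ± 0.26, with cKO 1 at -2.24 and cKO 3 at -2.66 below every control and cKO 2 at -1.54 above every control. Tgfb2, the only tested ligand with a positive difference, differed by 0.12 ± 0.21. The activin subunit genes Inhba and Inhbb differed by -0.64 ± 0.42 and -0.06 ± 0.23, and Gdf11, a TGF-beta family growth factor of the neural tube, by -0.07 ± 0.15.

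**Figure D2:**
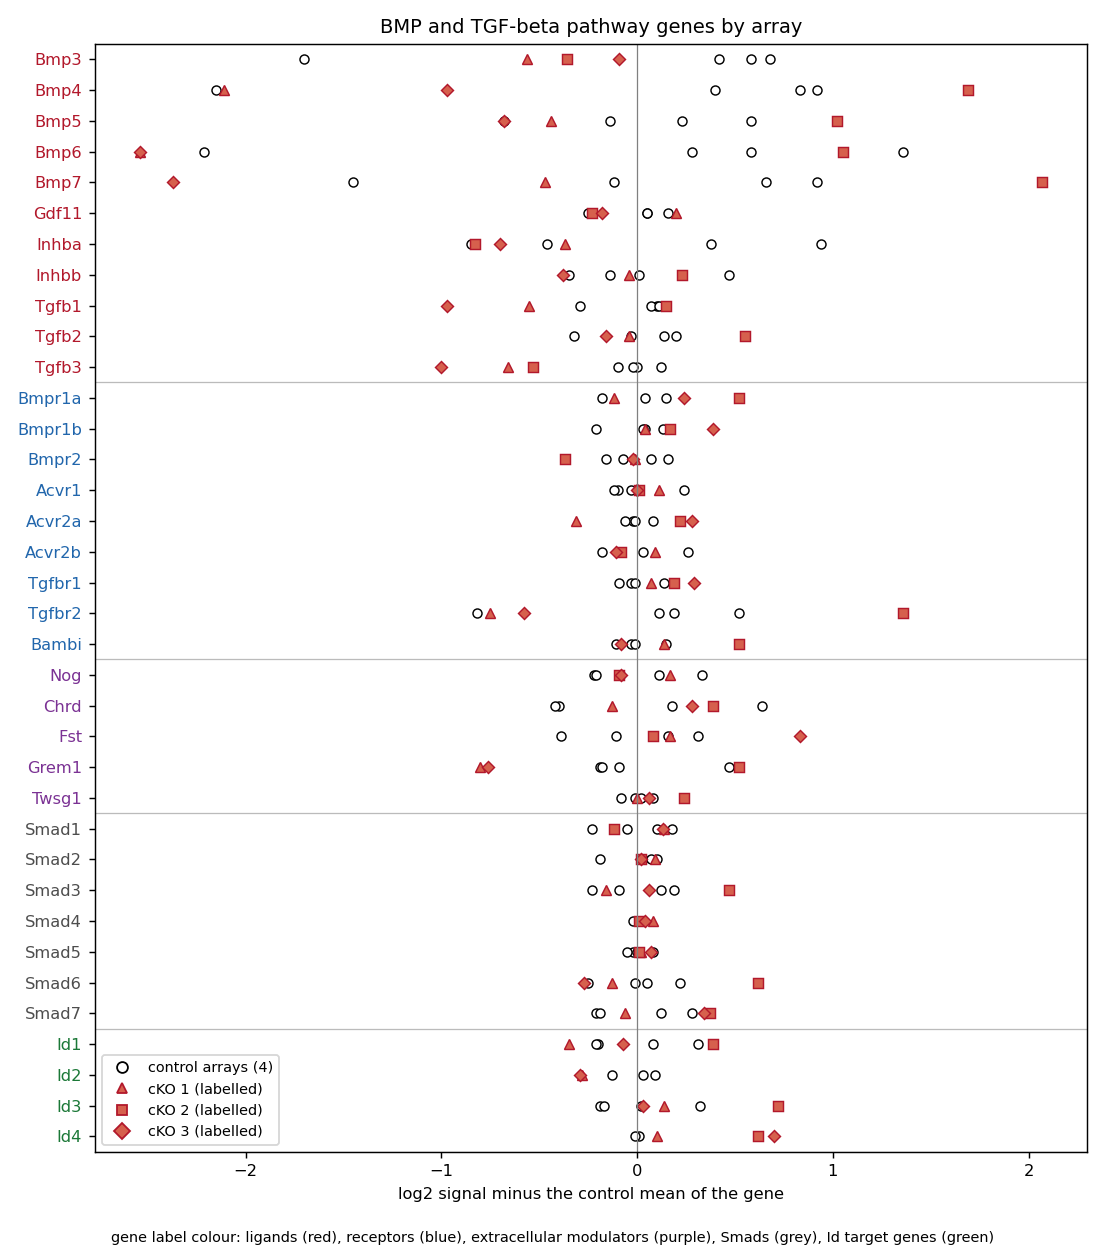
Log2 signal of each tested member minus its control mean, one row per gene, with open circles for the 4 control arrays and filled markers for cKO 1, cKO 2 and cKO 3; gene labels are coloured by role. Bmp4, Bmp6 and Bmp7 are spread over several log2 units in both groups, while the Smads lie close to 0.

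Markers of mesenchyme, meninges and pericytes differed widely between embryos. Their per-array median ran from -1.80 to 1.89 relative to the control mean, where the ligands' median ran from -0.70 to 0.37. The summed signal of 11 genes of this list with a value on every array was 21.6, 4.10, 18.6 and 25.7 times the 75th percentile in controls 1 to 4 and 3.87, 50.1 and 7.56 in cKO 1 to 3. The low arrays were again control 2, cKO 1 and cKO 3, all of litter 2, and the highest was cKO 2; control 3, the remaining embryo of litter 2, was not low. All 12 genes of the list were tested and 0 passed the threshold. The collagen gene Col1a1 ran from -1.59 to 1.09 in controls and from -1.43 to 2.17 in cKO-labelled arrays, and Lum, a defining gene of fibroblasts, was at the floor on control 2 and cKO 1.

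The per-array median of the mesenchyme list was then added to the fit as a covariate, a choice made after seeing the data. The standard error of Bmp4 went from 1.09 to 0.26, that of Bmp6 from 1.16 to 0.36, that of Bmp5 from 0.47 to 0.20 and that of the TGF-beta receptor gene Tgfbr2 from 0.57 to 0.13. An SE at least 2 times smaller was seen in these 4 of 36 members (11.1%) and in 4.11% of all genes. Members had larger errors to begin with: without the covariate 7 of 36 (19.4%) had an SE of at least 0.4, against 8.8% of all genes. These shares therefore do not compare genes of like spread. With the covariate Bmp4 differed by -0.41 ± 0.26 and Bmp6 by -1.29 ± 0.36 (limma, adjusted p = 0.534 and 0.268), and Tgfb1 by -0.44 ± 0.15 (adjusted p = 0.31). Tgfb3 stayed at -0.73 with a standard error of 0.12 (adjusted p = 0.158). No member passed the threshold with the covariate.

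**Figure D3:**
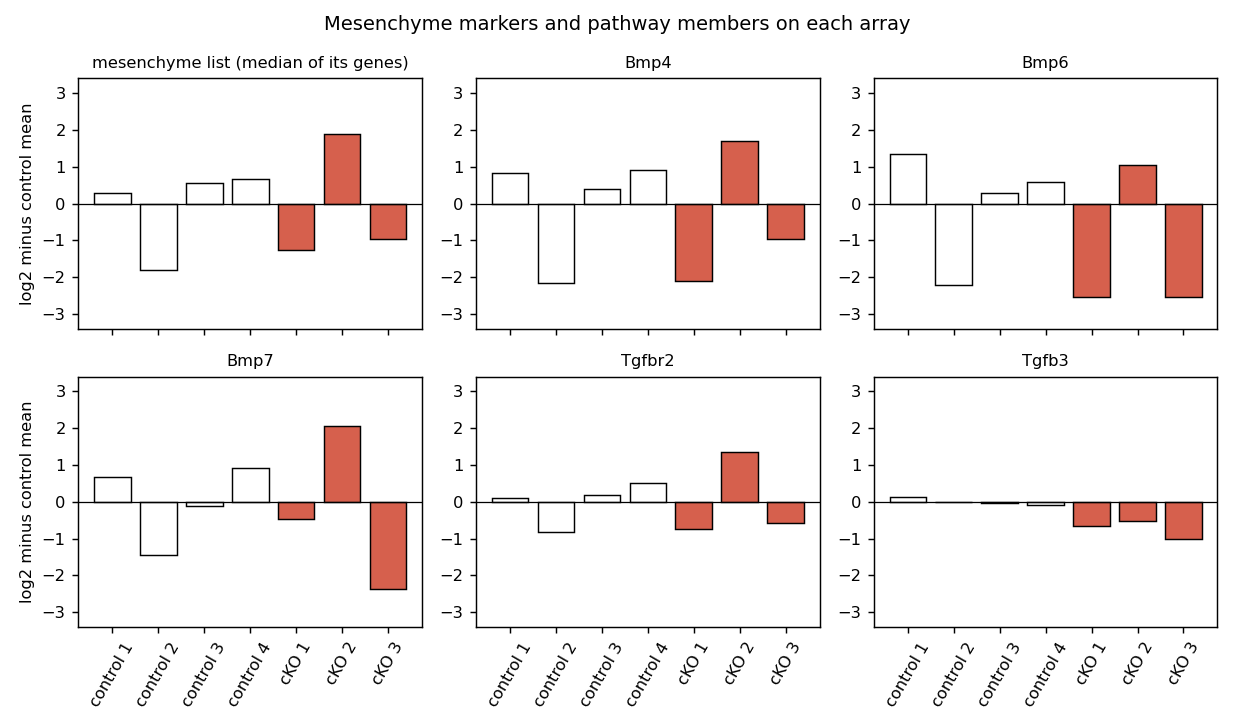
Log2 value minus the control mean on each array for the median of the mesenchyme list and for Bmp4, Bmp6, Bmp7, Tgfbr2 and Tgfb3, with white bars for controls and red bars for cKO-labelled arrays. Control 2, cKO 1 and cKO 3 are low and cKO 2 is high for the list and for Bmp4, Bmp6, Bmp7 and Tgfbr2, whereas Tgfb3 is below 0 on all 3 cKO-labelled arrays.

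**Figure D4:**
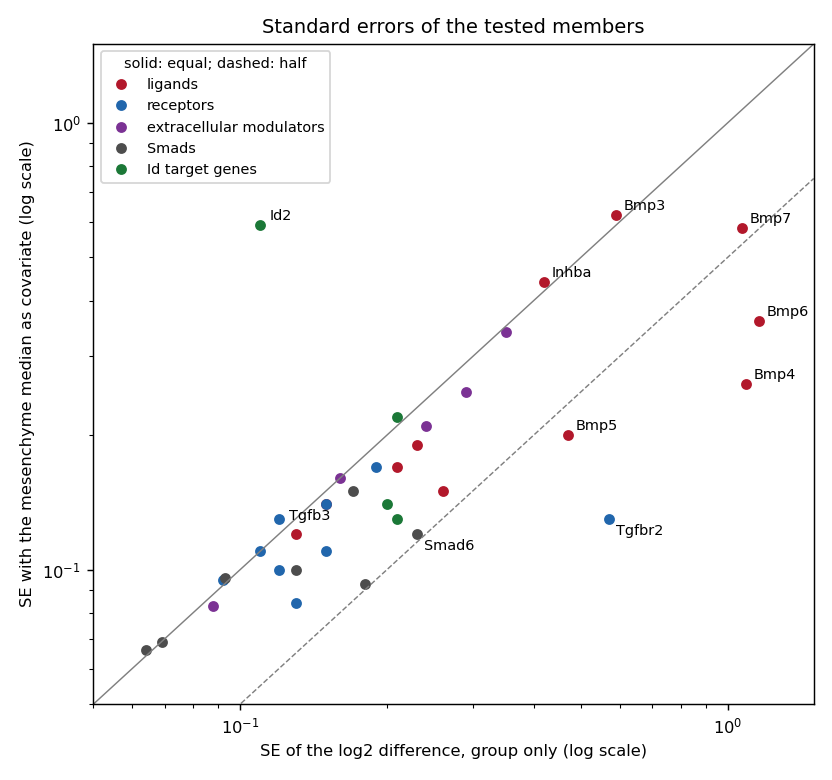
Standard error of each member's log2 difference in the fit with group only (x, log scale) and with the mesenchyme median as covariate (y, log scale), coloured by role; the solid line marks equal errors and the dashed line a halving. Bmp4, Bmp5, Bmp6 and Tgfbr2 lie below the dashed line, and Id2, fitted on 5 arrays, lies far above the solid line.

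Other marker lists also varied between the arrays. The summed signal of 5 cortical hem genes was 2.03, 1.47, 1.34 and 2.81 in controls 1 to 4 and 0.445, 1.77 and 0.214 in cKO 1 to 3. This sum was low in cKO 1 and cKO 3 alone, as was its brightest probe, Rspo1, at -1.54 and -2.69. Rspo1 was at 0.28 to 1.43 in controls and 0.66 in cKO 2. By their log2 median, centred on the controls, these hem genes were low in controls 2 and 3 too. That median took the values 0.61, -0.57, -0.46 and 0.14 for controls 1 to 4, then -0.68, 0.51 and -1.32 for cKO 1 to 3. The per-array log2 median of 7 endothelial genes, centred on the controls, was -0.51 to 0.22 in controls and -0.63 to 0.63 in cKO-labelled arrays. That of 6 microglial and macrophage genes was -0.41 to 0.31 and -0.61 to 0.64. Both lists were low on control 2 (-0.51 and -0.41), cKO 1 (-0.38 and -0.37) and cKO 3 (-0.63 and -0.61). Both were highest on cKO 2 (0.63 and 0.64), so the mesenchyme list was not alone in this pattern. The summed signal of 5 pallial genes was 30.4 to 38.1 in controls and 23 to 25.4 in cKO-labelled arrays, without overlap. Their log2 median overlapped, at -0.16 to 0.25 and -0.42 to -0.14. These genes did not move together. Neurod2 and Neurod6 were lower without overlap (-0.8 and -0.76) and Emx2 was higher without overlap (0.56). Emx1 and Tbr1 differed by -0.16 and -0.02, with overlapping groups. Of the 5 hem, 6 pallial, 8 endothelial and 6 microglial genes tested, 0 passed the threshold. Their part in the ligands' differences was not tested.

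Among the receptors 9 of 10 were tested and 0 passed the threshold. Their differences ran from -0.13 to 0.21 with a median of 0.06, and 7 were positive. Bmpr1a, a type I BMP receptor, was measured at 1.82, 2.04 and 2.15 in controls 1, 2 and 4 and at 1.88, 2.52 and 2.24 in cKO 1 to 3; its spot on control 3 was marked as an outlier. The groups overlapped, with a difference of 0.21 ± 0.19. Bmpr1b, the other classical type I receptor of BMPs, differed by 0.21 ± 0.12, and the type II receptor Bmpr2 by -0.13 ± 0.13.

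The receptor genes Acvr1, Acvr2a and Acvr2b differed by 0.04 ± 0.11, 0.06 ± 0.15 and -0.03 ± 0.12. Tgfbr1, the type I TGF-beta receptor, differed by 0.18 ± 0.092 (adjusted p = 0.526, limma), the smallest adjusted p of the receptors. Its type II partner Tgfbr2 was measured at -0.08, -1.01, 0.00 and 0.33 in controls and at -0.94, 1.17 and -0.77 in cKO-labelled arrays, again with control 2, cKO 1 and cKO 3 low. Its difference was 0.01 ± 0.57, and 0.04 ± 0.13 with the mesenchyme covariate. Bambi, a pseudoreceptor that dampens the pathway, differed by 0.19 ± 0.15.

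Of the extracellular modulators 5 of 6 were tested and 0 passed the threshold. Noggin (Nog) differed by 0.00 ± 0.16 and chordin (Chrd) by 0.18 ± 0.29, both antagonists that bind BMPs directly. Follistatin (Fst), an activin antagonist, differed by 0.37 ± 0.24, and the BMP antagonist Grem1 by -0.35 ± 0.35. Twsg1, which modulates BMP binding to chordin, differed by 0.10 ± 0.088. The widest modulator intervals, those of Grem1 and Chrd, ran from -1.18 to 0.49 and from -0.50 to 0.86.

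Bmper, which binds BMPs outside the cell, was not tested on its brightest probe. Its second probe was measured at 0.40, 0.50, 0.64 and 0.44 in controls and at 0.56, 0.76 and 0.89 in cKO-labelled arrays. The difference was 0.25 ± 0.11, with overlapping groups (limma, unadjusted p = 0.0594, adjusted p = 0.485). With outlier spots kept, the brightest probe gave 1.71, 1.82, 2.02 and 1.93 against 2.03, 2.07 and 2.40, a difference of 0.30 ± 0.13 in which every cKO-labelled array lay above every control (adjusted p = 0.45, limma).

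The Smads had the smallest differences of any role, with a median size of 0.05. Of 7 tested, 0 passed the threshold, and their differences ran from 0.03 to 0.22. All 7 were positive relative to the 75th percentile, but only 2 of 7 were when arrays were centred on their median, which moves the median of all genes from 0.01 to -0.08. Smad1, a BMP-responsive Smad, was measured at 3.26, 3.67, 3.59 and 3.44 in controls and at 3.63, 3.37 and 3.62 in cKO-labelled arrays, with overlapping groups and a difference of 0.05 ± 0.13.

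Smad4, the shared partner, differed by 0.04 ± 0.064 with a 95% interval of -0.11 to 0.20, and the BMP-responsive Smad5 by 0.03 ± 0.069 with an interval of -0.13 to 0.20. Smad2 and Smad3, which carry TGF-beta and activin signals, differed by 0.04 ± 0.093 and 0.13 ± 0.18. The inhibitory Smad6 and Smad7 differed by 0.07 ± 0.23 and 0.22 ± 0.17. Smad6 was highest on cKO 2 at -1.39 and lowest on cKO 3 at -2.28, so both extremes lay in the cKO-labelled group.

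All 4 Id genes were tested and 0 passed the threshold. Id4, an Id gene of the ventricular zone, was measured at 4.67 and 4.65 in controls 1 and 2 and at 4.76, 5.28 and 5.36 in cKO 1 to 3; controls 3 and 4 were marked as outlier spots and left out. All measured cKO-labelled arrays lay above both controls, with a difference of 0.47 ± 0.21 (adjusted p = 0.506, limma). With slide as a block the difference was 0.10, since both controls with a value share slide 1 with cKO 1.

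A second, dimmer Id4 probe had a value on all 7 arrays: 3.84, 3.98, 3.96 and 3.93 in controls and 4.03, 4.25 and 4.45 in cKO-labelled arrays. The groups did not overlap, and the difference was 0.32 ± 0.11 (limma, unadjusted p = 0.0261, adjusted p = 0.396). With outlier spots kept, the brighter probe gave 4.54, 4.49, 4.53 and 4.53 against 4.66, 5.03 and 5.23, a difference of 0.45 ± 0.14 (adjusted p = 0.317, limma). On both probes cKO 1 lay nearest to the controls.

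Id2, an Id gene of progenitors and migrating neurons, went the other way. It was measured at 2.99, 2.77 and 2.93 in controls 1, 3 and 4 and at 2.62 and 2.61 in cKO 1 and cKO 3, with control 2 and cKO 2 left out as outlier spots. The groups did not overlap, and the difference of -0.28 ± 0.11 did not pass the threshold (limma, unadjusted p = 0.0493, adjusted p = 0.451). Its second probe differed by -0.15 ± 0.12 and its groups overlapped. With outlier spots kept, the brighter Id2 probe gave 2.85, 2.55, 2.58 and 2.8 in controls and 2.51, 2.41 and 2.48 in cKO-labelled arrays. Those groups did not overlap, with a difference of -0.23 ± 0.1 (limma, unadjusted p = 0.0582, adjusted p = 0.461).

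Id1, the Id gene most often read as a BMP target, was measured at -0.52, -0.53, -0.24 and -0.01 in controls and at -0.67, 0.07 and -0.39 in cKO-labelled arrays, a difference of -0.01 ± 0.21. Id3 was measured at 0.31, 0.10, 0.12 and 0.61 in controls and at 0.43, 1.01 and 0.32 in cKO-labelled arrays, a difference of 0.30 ± 0.20. The groups overlapped for both. For both the highest array was cKO 2.

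Of the members, 33 had values on all 7 arrays. For these cKO 2 was the highest array for 14 (42.4%), against 29.9% of the 12673 genes with such values. The median standard deviation of a tested member among the 4 controls was 0.19, against 0.16 over all genes. It exceeded 0.5 for 8 of 36 members and for 1373 of 13341 genes.

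A wider list of 84 other genes of the pathway was read in the same fit. It shares no gene with the 40 and was also chosen with earlier results known. Of these 77 had a named probe, 65 were tested and 1 passed the threshold; 8 had an unadjusted p under 0.05, beside 11.0% of all genes, and 10 had groups that did not overlap, beside 12.8% of all genes. That gene was Msx3, a homeobox gene of the dorsal neural tube and a BMP target, which rose. It was measured at -3.96, -3.88, -4.0 and -3.87 in controls and at -2.53, -2.22 and -2.93 in cKO-labelled arrays, a difference of 1.37 ± 0.16 (adjusted p = 0.0455, limma), 2.58-fold higher. The call was lost with slide as a block and on leaving out any 1 array, while the difference stayed between 1.05 and 1.55 over 22 settings. The 65 genes had a median difference of 0.03, with 38 positive and 27 negative.

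Of the 9 other ligands tested 0 passed the threshold. Inha, the inhibin alpha subunit that opposes activin signals, was measured at -0.28, -0.17, -0.23 and -0.17 in controls and at -0.60, -0.80 and -0.87 in cKO-labelled arrays. The groups did not overlap, and the difference was -0.55 ± 0.089 (limma, unadjusted p = 0.000502, adjusted p = 0.105). Gdf10, Mstn and Inhbe differed by -0.32 ± 0.21, 0.83 ± 0.56 and 0.26 ± 0.25, with overlapping groups.

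Of the 10 other receptors and co-receptors 0 passed the threshold. Tdgf1 (Cripto), the co-receptor of Nodal, was dim, at -6.63, -7.45, -6.73 and -6.10 in controls and at -5.69, -5.31 and -5.25 in cKO-labelled arrays. All cKO-labelled arrays lay above all controls, and the difference was 1.31 ± 0.30 (adjusted p = 0.251, limma), but 0.50 with normexp and 0.51 fitted on the authors' deposited table. Amhr2, Acvr1b and the endothelial co-receptor Eng differed by 0.24 ± 0.12, 0.21 ± 0.15 and -0.33 ± 0.32.

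None of the 16 other extracellular modulators passed the threshold. Ltbp1 and Ltbp3, which hold latent TGF-beta in the matrix, differed by 0.76 ± 0.41 and 0.19 ± 0.16. The activin-binding Fstl3 differed by 0.46 ± 0.29. The groups overlapped for Ltbp3 and Fstl3, and for Ltbp1 every cKO-labelled array lay above every control. The gap for Ltbp1 was narrow, with cKO 3 at -3.53 and control 4 at -3.54. As the mean over probes Ltbp1 differed by 0.38.

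The intracellular regulators held 20 tested genes, of which 0 passed the threshold, 4 had an unadjusted p under 0.05 (11.0% of all genes did) and 5 had groups that did not overlap (12.8% of all genes). The E3 ubiquitin ligase gene Smurf1, whose product marks Smads and receptors for degradation, was measured at 0.43, 0.45, 0.47 and 0.33 in controls and at 0.11, 0.20 and 0.14 in cKO-labelled arrays, a difference of -0.27 ± 0.072 (adjusted p = 0.283, limma). The corepressor genes Tgif2 and Ski differed by 0.25 ± 0.081 and -0.20 ± 0.078, and the Smad phosphatase gene Ppm1a by -0.26 ± 0.094 on 5 arrays. The groups did not overlap for these 4 genes, nor for Map3k7, a kinase of the non-Smad branch, named after its values were seen, which differed by 0.20 ± 0.094. The gap for Map3k7 was narrow, with cKO 1 at -1.54 and control 2 at -1.55.

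Of the 10 other target genes tested only Msx3 passed the threshold. Atoh8, a basic helix-loop-helix gene induced by BMPs, was measured at -3.13, -3.16, -3.20 and -3.26 in controls and at -2.99, -2.85 and -2.84 in cKO-labelled arrays, a difference of 0.30 ± 0.076 (adjusted p = 0.276, limma). Msx2, a homeobox target of BMPs, was at or near the floor on 4 arrays and differed by 1.09 ± 0.63. The groups overlapped for Msx2 and did not for Atoh8.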

How the data were processed

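RNA of each embryo was amplified with a Cy3 label and put on 1-colour Agilent whole mouse genome arrays, per the labels' protocols. The deposited intensity of each spot is the background-subtracted processed signal of Agilent Feature Extraction 10.7.3.1, per the file headers (10.5 in the submitters' processing notes), with no normalization between arrays. A table of log2 values, which the authors deposited as well, served as an alternative; the sources used here do not give its normalization. Arrays had 1.24% to 2.51% of spots marked as outliers, which were left out, and 68.4% to 72.2% well above background; 0 were saturated.

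Signals were divided by each array's 75th percentile, floored at a log2 value of -7.45 and taken to log2. Probes were named through RefSeq accessions, 24844 of 41174 with 1 symbol. The brightest probe stood for a gene and was tested with 3 or more of 7 arrays well above background and 2 or more unmarked values per group. limma 3.58.1 in R 4.3.3 (lmFit, eBayes, group only) was adjusted by Benjamini-Hochberg over 13341 genes and was tested on simulated data. The normexp alternative used median spot signals. The 40 members, the role lists, the wider list and the marker lists were chosen with earlier results of these data known. By rule, per-array values are given for members with an unadjusted p under 0.05 or with groups that did not overlap and for Bmp4, Bmp7, Bmpr1a, Smad1, Id1 and Id3, others were added after their values were seen, and up to 4 genes with the smallest p are named per wider list, apart from some that are not reported here. Alternatives were other scalings, filters and probe rules, slide, litter and replicate blocks, each slide or litter 2 alone, each array left out, and the mesenchyme covariate.

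The marker lists whose levels are not described in the report had 5 septal, 6 choroid plexus, 7 erythroid and 5 hypothalamic and optic genes tested. Of these 2 passed the threshold, Hmx2 and Hmx3 of the last list, both higher; of 12 telencephalic and subpallial genes 1 passed, Lhx6, lower.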

Additional observations from a re-analysis of the deposited data

Results flagged for a closer look

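In 5 of 51 pathway genes with 4 control values, 1 control array stood apart from the other 3, with the gap to its nearest neighbour taking a share of the group's range above Dixon's critical value, which chance passes in about 1 in 20 groups. Control 2 was the lowest control for 2 of them, with a gap of 0.831 of the range for Bmp4 and 0.903 for Tgfb1, and the highest for Grem1 (0.85). It was also the control with the lowest mesenchyme signal, a summed level of 4.10 against 18.6 to 25.7; the part of this in those values was not tested. Control 1 stood apart as the lowest for Bmp3 (0.892), where it was near the floor. Control 4 stood apart as the highest for Msx2 (0.992), where the other 3 controls were at or near the floor.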

How the results depend on the processing

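No member passed the threshold under any of 22 alternatives. Over these, 13 members kept 1 sign and 23 took the other sign at least once. Over all genes 28 passed, against 46 with normexp, 43 with the authors' deposited table, 15 with no filter on dim probes, 16 with a slide block, 15 with the mesenchyme covariate (added after seeing the data), and 0 to 25 leaving out 1 array. The count was 0 without control 2, control 3, control 4 or cKO 3. It was also 0 within slide 2 and within litter 2 (1194 and 844 genes at an unadjusted p under 0.05, limma). Slide 1 holds only 1 cKO-labelled array, assumed to vary like its 2 controls, so its 0 calls (411 genes at an unadjusted p under 0.05) say nothing about stability. The members' median of 0.04 was -0.06 with median centring, -0.02 within slide 1 and -0.03 within litter 2. Leaving out 1 array gave -0.01 (without cKO 2) to 0.15 (without cKO 1). The median over all genes, 0.01 in the main fit, moved the same way. It was -0.08, -0.04, -0.06, -0.03 and 0.06 in these settings, in the order given.

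The 1 call among the wider pathway genes, Msx3, became 0 calls with median centring, quantile normalization, no filter, the mean over probes, a slide block, each slide or litter 2 alone, the mesenchyme covariate, and each array left out (0 to 0). A replicate block gave 0 calls over all genes (1498 at an unadjusted p under 0.05), 0 among members and 0 in the wider list; same-numbered arrays did not deviate together (correlations 0.11, -0.53 and 0.03), so the numbers do not pair the embryos. Some alternatives could not give a value for Id2, Id4 and Bmpr1a, whose spots were partly left out. The depth of 7 arrays limits these counts, and signals near the floor (Bmp3, Bmp5, Bmp6, Msx2, Tdgf1) limit those genes' differences.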

Other observations

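For several members a second, dimmer probe gave another value than the one used. The second Inhbb probe differed by 1.0 ± 0.54 where the first gave -0.06 ± 0.23, and cKO 1 at -4.19 lay well above the other arrays, which ran from -7.28 to -5.97. A second Tgfbr2 probe, made to another transcript of the gene, was at the floor on controls 2, 3 and 4 and reached -3.13 on control 1 and -2.99 on cKO 1; its difference was 1.63 ± 1.27. The second Smad3 probe differed by -0.39 ± 0.34 and a second Smad5 probe by 0.46 ± 0.23, against 0.13 and 0.03 on the probes used.

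The second Twsg1 probe was measured at -1.47, -1.63, -1.69 and -1.72 in controls and at -1.35, -1.21 and -1.37 in cKO-labelled arrays. The groups did not overlap, with a difference of 0.32 ± 0.094 (limma, unadjusted p = 0.0112, adjusted p = 0.32 over 19606 probes), against 0.10 on the brighter probe. Smad9, below the background filter, was at the floor on 5 arrays and at -6.84 on control 1, and reached -3.91 on cKO 3.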
